A study of Mus musculus with 6 samples.

Results

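A group of genes of the non-collagen, non-laminin extracellular matrix was followed in mouse embryonic stem cells that lack METTL5. Its members were Fn1, Sparc, Fbn1, Fbn2, Nid1, Nid2, Hspg2, Vcan, Tnc and Fstl1, found by matching the Ensembl identifiers of the deposited table to GENCODE M21 symbols, and made up 10 of its 24191 genes. The libraries came from J1 embryonic stem cells, a mouse line: 3 from Mettl5 -/- cells (Mettl5 knockout) and 3 from wild-type (WT) cells. The cells of all 6 libraries were kept in serum with LIF, the cytokine that holds mouse embryonic stem cells undifferentiated, for 7 days, and polyA RNA was sequenced. The study concerned METTL5, which methylates adenosine in the small-subunit ribosomal RNA, and its part in pluripotency and developmental programmes. Neither how Mettl5 was disrupted, nor whether the knockout line is 1 clone or several, nor whether replicates were separate cultures is given in the sources used here. The p-values therefore measure the spread between these libraries, which may be technical.

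The extracellular matrix is the network of secreted proteins to which cells attach. Fibronectin is assembled into fibrils by integrins, fibrillins polymerise into the microfibrils of elastic tissue, and nidogens and perlecan link laminin and collagen IV within basement membranes. Versican and tenascin C are large proteins of loose, remodelling matrix, and SPARC and FSTL1 are secreted proteins that modulate matrix and growth factor signals rather than build it. In the early mouse embryo, basement membrane lies beneath the epiblast, and fibronectin becomes prominent as mesoderm forms.

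Levels are given on the TPM scale, a per-length level that the authors rescaled between libraries, so that levels of different genes can be compared. Fold changes are differences of log2(scaled reads + 1) in knockout minus WT, tested with limma over 24183 genes and called at a Benjamini-Hochberg adjusted p under 0.05. The check of the labels was Mettl5 itself, at 3.65, 3.58 and 3.32 in the knockout libraries, against 50.3, 48.6 and 48.7 in the WT libraries. Replicates of a genotype varied by a median of 3.58% (coefficient of variation over genes) in knockout and 4.16% in WT libraries. These medians cover the 13269 genes above 1 on the TPM scale in every library, and lower genes can vary more. No library stood apart from its group. The table gives no read totals, but relative depth read from the smallest steps of the values was 0.682 to 1 in knockout libraries and 0.719 to 0.994 in WT libraries.

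Of the 10 matrix genes, 9 rose in knockout cells and 1, Nid2, fell. The largest rise was in Tnc, followed by Fstl1 and Vcan, then Fbn1 and Fbn2, while the abundant genes Sparc, Fn1 and Hspg2 and the moderately expressed Nid1 rose by 0.88 to 1.15 on the log2 scale. The median log2 fold change of the 10 genes was 1.32, beside 0.00 for all genes tested. In this comparison 33.6% of all genes were called higher and 28.9% lower, 62.6% in all, so calls were common in the table as a whole. A called rise of at least 1 on the log2 scale was seen in 8 of the 10 genes and in 11.4% of all genes. A called fall of that size was seen in none of the 10 and in 9.93% of all genes. The 10 genes, and the lists and markers below, were chosen with earlier results of these data known. Their contrasts with all genes are therefore descriptions, and not those of a list picked blind to the data. With library totals made equal, the median over the whole table became -0.15, and the matrix genes stayed at 9 higher and 1 lower. With that scaling 5 had a rise of at least 1, and the share of all genes at such a rise was not counted. The share of higher genes in all calls was 53.8% as reported and 40.8% with equal totals. Every knockout library was above every WT library for 9 genes, as for 32.5% of all genes, and below for Nid2, as for 35.7% of all genes. Because whole cultures were measured, more RNA per cell and a larger share of expressing cells cannot be told apart.

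**Figure D1:**
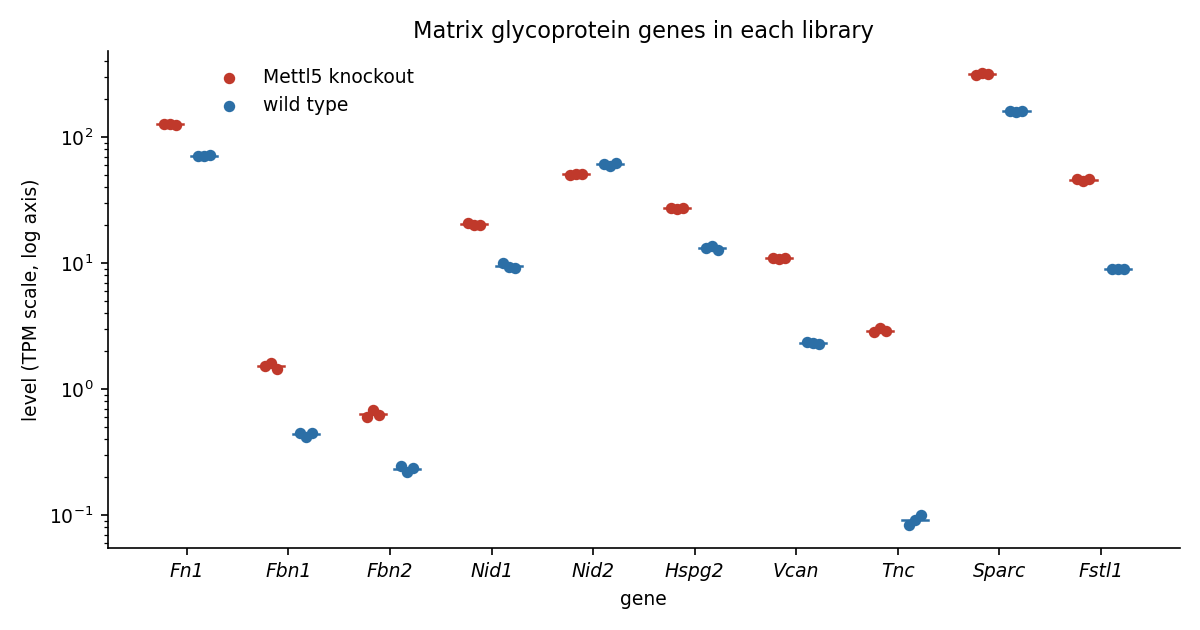
Level of each matrix glycoprotein gene on the TPM scale (log axis) in the 3 Mettl5 knockout libraries (red, left) and the 3 WT libraries (blue, right), with a line at each mean. Sparc is the most abundant gene in both genotypes, Tnc has the widest gap (2.91 in knockout and 0.0917 in WT cells), and Nid2 is the 1 gene lower in the knockout.

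Fn1 encodes fibronectin, the fibril-forming ligand of integrin alpha5 beta1. It lies on mm10 chromosome 1, 71585520 to 71653200, minus strand (ENSMUSG00000026193). Its level was 127, 127 and 125 in the knockout libraries, against 70.9, 70.3 and 71.5 in the WT libraries. The groups were far apart relative to their spread, with means of 126 ± 1.24 in knockout and 70.9 ± 0.606 in WT cells (SD, n = 3 each). Fn1 rose by 0.88 on the log2 scale (SE 0.0227, limma adjusted p 2.05e-09), the smallest rise among the 9 genes. The table gives 1 value per gene, so the splice forms of fibronectin, with 17 transcripts annotated in GENCODE M21, are not separated here.

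The genes that receive or organise fibronectin and its neighbours rose in part as well. Of 16 matrix receptor genes, 12 were higher (against 33.6% of all genes tested), 1 was lower (against 28.9%) and 3 were not called. Their median log2 fold change was 1.21. The 16 include Egfr, the epidermal growth factor receptor gene, which was among the higher ones at 3.59. The 3 with the smallest p-values were Cd44, Itgb1 and Itga5. Itga5 and Itgb1 encode the subunits of the classical fibronectin receptor, and Cd44 encodes the hyaluronan receptor. Itga5 averaged 26.6 ± 0.484 in knockout and 9.37 ± 0.694 in WT cells, and Itgb1 averaged 204 ± 1.72 in knockout and 107 ± 1.97 in WT cells (SD, n = 3 each). Their log2 fold changes were 1.56 and 0.99 (limma adjusted p 1.06e-08 and 1.67e-09). Cd44 was at 5.78 ± 0.228 in knockout and 0.359 ± 0.024 in WT cells, a log2 fold change of 4.03. The lower member was Itga9, a subunit of a tenascin C receptor, at -0.56, named after its value was seen. With equal totals the counts were 11 higher and 2 lower, where 6309 of all genes were higher and 9147 lower.

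The fibrillin genes Fbn1 and Fbn2, which encode the backbone of microfibrils, were scarce in both genotypes. Fbn1 (ENSMUSG00000027204, chromosome 2, 125300594 to 125507993, minus strand) was at 1.51, 1.603 and 1.45 in the knockout libraries, against 0.445, 0.419 and 0.452 in the WT libraries. Fbn2 (ENSMUSG00000024598, chromosome 18, 58008623 to 58210487, minus strand) was at 0.606, 0.680 and 0.622 in the knockout libraries, against 0.243, 0.221 and 0.237 in the WT libraries. Neither gene's groups overlapped, although Fbn2 stayed under 1 on the TPM scale in every library. Fbn1 rose by 1.84 (SE 0.059) and Fbn2 by 1.48 (SE 0.0779) on the log2 scale, with limma adjusted p of 8.78e-09 and 2.2e-07. Fbn2, a fibrillin prominent in embryos, was below Fbn1 in all 6 libraries.

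Of 16 microfibril and elastic fibre partners of the fibrillins, 9 were higher, 3 lower and 4 not called, with a median of 0.29, beside 33.6% higher and 28.9% lower of all genes tested. The smallest p-values were in Efemp1, Efemp2 and Ltbp1. Efemp2 encodes fibulin-4, which is needed for elastic fibre assembly, and Ltbp1 encodes a latent TGF-beta binding protein that docks on fibrillin and fibronectin. Efemp1, encoding fibulin-3, averaged 13.5 ± 0.408 in knockout and 0.297 ± 0.0428 in WT cells (SD, n = 3 each), a rise of 5.48 on the log2 scale (limma adjusted p 1.1e-09). Efemp2 and Ltbp1 rose by 1.403 and 1.61. Elastin itself, Eln, was at 0.646 ± 0.0351 in knockout and 0.46 ± 0.0408 in WT cells (SD, n = 3 each), a rise of 0.54.

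The 2 nidogen genes moved in opposite directions. Nid1 (ENSMUSG00000005397, chromosome 13, 13437551 to 13512269, plus strand) was at 21.0, 19.9 and 20.1 in the knockout libraries, against 10.1, 9.29 and 9.09 in the WT libraries. Nid2 (ENSMUSG00000021806, chromosome 14, 19751265 to 19811787, plus strand) was at 50.01, 51.2 and 51.4 in the knockout libraries, against 61.2, 58.9 and 62.4 in the WT libraries. Nid1 was therefore higher and Nid2 lower in every knockout library than in any WT library, and Nid2 was the more abundant of the pair throughout. On the log2 scale Nid1 changed by 1.15 (SE 0.0436, limma adjusted p 2.49e-08) and Nid2 by -0.21 (SE 0.0276, limma adjusted p 0.00012). The size of the Nid2 fall depends on the scaling, at -0.37 with equal totals. The end of Nid2 overlaps Rtraf on the opposite strand, which was at 177 in knockout and 162 in WT cells. Without a stated strand setting, reads from the shared stretch cannot be told apart.

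Within each library, Nid1 RNA amounted to 0.419, 0.389 and 0.392 of Nid2 RNA in the knockout, against 0.165, 0.158 and 0.146 in WT. Such a ratio does not depend on how libraries were scaled. The ratio of Fstl1 to Sparc averaged 0.144 ± 0.00475 in knockout and 0.0557 ± 0.000181 in WT cells, and that of Fbn1 to Fbn2 averaged 2.40 ± 0.0874 in knockout and 1.87 ± 0.0433 in WT cells (SD, n = 3 each). Sparc relative to Fn1 moved least, to 2.51 ± 0.0329 in knockout, against 2.27 ± 0.00629 in WT cells (SD, n = 3 each). For all 4 ratios the knockout libraries were above the WT libraries. The two-sided exact permutation p was 0.10 for each, and 0.10 after adjustment over the 4 ratios, which is the smallest that 3 libraries against 3 allow.

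**Figure D2:**
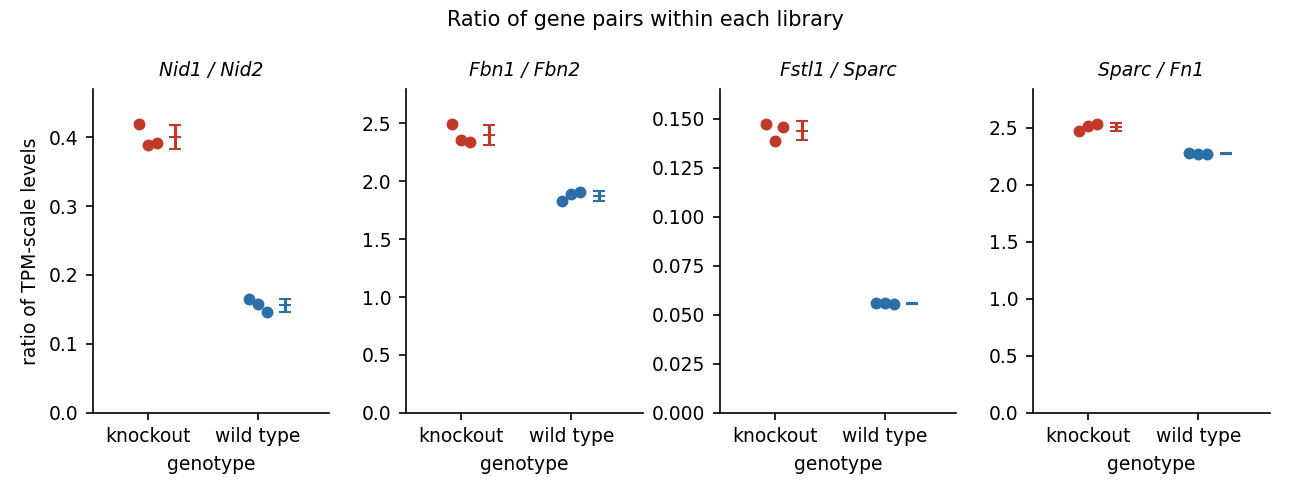
Ratio of TPM-scale levels for 4 gene pairs within each library, knockout (red) left of WT (blue), with mean and SD beside the points and each axis starting at 0. The Nid1 to Nid2 ratio averages 0.4 in the knockout and 0.156 in WT, and the Sparc to Fn1 ratio moves little.

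Hspg2 encodes perlecan, the large heparan sulphate proteoglycan of basement membranes (ENSMUSG00000028763, chromosome 4, 137468769 to 137570630, plus strand). It was at 27.3, 26.6 and 27.5 in the knockout libraries, against 13.1, 13.6 and 12.7 in the WT libraries. The groups did not overlap, and Hspg2 rose by 1.09 on the log2 scale (SE 0.0304, limma adjusted p 3.55e-09). Of 17 other basement membrane genes, 14 were higher (against 33.6% of all genes tested), 1 was lower (against 28.9%) and 2 were not called. Their median was 0.94. The lower one was Lama1, the alpha chain of embryonic laminin, at 3.13 ± 0.171 in knockout and 15.2 ± 0.0856 in WT cells (SD, n = 3 each), a log2 fold change of -2.23. Agrn, the heparan sulphate proteoglycan agrin, had a log2 fold change of 1.06, and Tinagl1, a secreted basement membrane glycoprotein, one of 3.18 (limma adjusted p 1.57e-09 and 1.43e-09). Nid2 and Lama1 were thus the called falls among the nidogens, perlecan and these 17 genes.

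Vcan encodes versican, the hyaluronan-binding chondroitin sulphate proteoglycan of provisional matrix (ENSMUSG00000021614, chromosome 13, 89655312 to 89742509, minus strand). It was at 11.0, 10.8 and 11.1 in the knockout libraries, against 2.36, 2.34 and 2.28 in the WT libraries. Replicates lay within a few percent of each other, and Vcan rose by 2.28 on the log2 scale (SE 0.044, limma adjusted p 3.84e-10). Versican splice forms differ in their glycosaminoglycan-bearing region and are not separated here.

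Tnc encodes tenascin C, a hexameric glycoprotein of embryonic and healing tissue (ENSMUSG00000028364, chromosome 4, 63959785 to 64047015, minus strand). Its level was 2.82, 3.03 and 2.89 in the knockout libraries, against 0.0831, 0.0919 and 0.100 in the WT libraries. This was the lowest of the 10 genes in WT cells. If the step found in genes with a single annotated transcript also holds for Tnc, which has 4, the values correspond to about 897 to 1407 reads per library in knockout and 32.3 to 37.2 in WT cells. The mean level was 31.8 times as high in knockout as in WT cells. The rise of 5.0 on the log2 scale (SE 0.0874, limma adjusted p 2.05e-10) placed Tnc at rank 54 of 24183 genes by rise. On the TPM column with 0.1 added, the value was 3.97, since the addition is as large as the WT level. A transcript on the opposite strand, 8030451A03Rik, overlaps Tnc but is absent from the deposited table, so its level is not known here.

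Of 17 relatives of versican and tenascin, 7 were higher, 5 lower and 5 not called, with a median of 0.39. These shares are near those of all genes tested, of which 33.6% were higher and 28.9% lower, and are no result about the list. Has2, the main hyaluronan synthase of embryonic mesenchyme, averaged 4.72 ± 0.0505 in knockout and 0.802 ± 0.0655 in WT cells (SD, n = 3 each), a rise of 2.60. Adamts1, a protease that cleaves versican, rose by 2.89. Acan, encoding aggrecan, a versican relative best known from cartilage, averaged 1.21 ± 0.0443 in knockout and 2.78 ± 0.0955 in WT cells (SD, n = 3 each), a log2 fold change of -1.15. The other tenascin genes, Tnr, Tnn and Tnxb, were under 0.1 in both genotypes and were not called.

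Sparc encodes the collagen-binding matricellular protein SPARC, also called osteonectin (ENSMUSG00000018593, chromosome 11, 55394500 to 55423183, minus strand). Its level was 313, 320.4 and 317 in the knockout libraries, against 161, 159.5 and 162 in the WT libraries. Of all genes in the table, 1.92% were at or above its level in knockout and 3.7% in WT cells. Sparc rose by 1.03 on the log2 scale (SE 0.0232, limma adjusted p 9.29e-10). On chromosome 11 genes in general were lower in the knockout, with a median of -0.41 over 1787 genes and 14.4% called higher. Sparc rose against that median, and its value centred on the chromosome was 1.45. The other 9 genes lie on chromosomes whose medians were between -0.02 and 0.21. Chromosomes 8 and 6, which hold no gene of this group, were also lower, with medians of -0.38 and -0.29. The receptor gene Itgb1 lies on chromosome 8, and its centred value was 1.36.

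Fstl1 encodes follistatin-like 1, a secreted relative of SPARC with a follistatin-type domain (ENSMUSG00000022816, chromosome 16, 37776873 to 37836514, plus strand). It was at 46.1, 44.4 and 46.2 in the knockout libraries, against 9.01, 8.90 and 9.002 in the WT libraries. Fstl1 rose by 2.42 on the log2 scale (SE 0.0461, limma adjusted p 3.6e-10), more than Sparc, and the intervals of the 2 genes (95%, 2.32 to 2.52 for Fstl1 and 0.98 to 1.09 for Sparc) did not overlap. Among 21 other matricellular and SPARC- or follistatin-related genes, 12 were higher (against 33.6% of all genes tested), 3 lower (against 28.9%) and 6 not called. Their median was 0.94. Thbs1, encoding thrombospondin 1, averaged 63.5 ± 0.0767 in knockout and 1.02 ± 0.0285 in WT cells (SD, n = 3 each), a log2 fold change of 6.0. Ccn1 and Ccn2, both known as targets of YAP, rose by 3.68 and 2.17. The closest relatives of SPARC differed, since Smoc1 and Spock2 had log2 fold changes of -0.77 and -0.72, Smoc2 one of 1.16 and Sparcl1 stayed under 0.1 in both genotypes (values of these 4 were picked after they were seen).

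**Figure D3:**
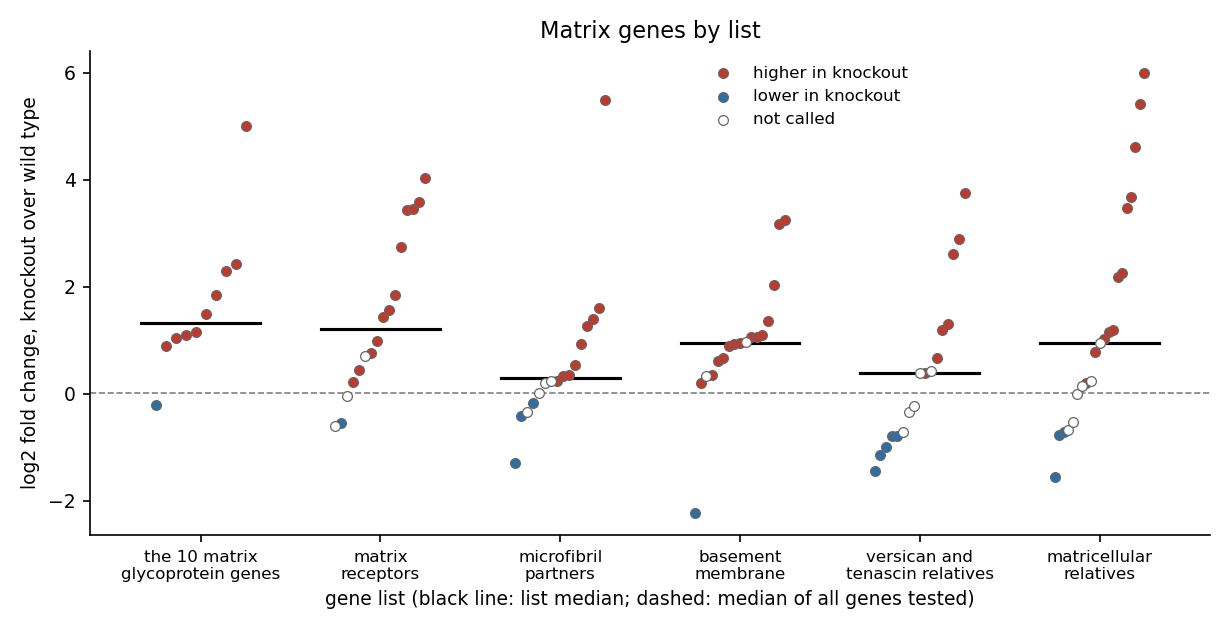
Log2 fold change, knockout over WT, of the 10 matrix genes and of 5 lists of related matrix genes. Each point is a gene, ordered within its list by fold change and coloured by its limma call, black lines are list medians (1.32 for the 10 genes, 1.21 for receptors, 0.29 for microfibril partners) and the dashed line is the median of all genes tested.

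Summed over the 10 genes, the level was 603 ± 3.22 in knockout and 327 ± 3.47 in WT cells (SD, n = 3 each). Sparc made up 52.1% to 52.9% of this sum in knockout and 49.1% to 49.3% in WT libraries, and Fn1 20.7% to 21.1% in knockout and 21.5% to 21.7% in WT libraries. The share of Nid2 was 8.34% to 8.52% in knockout and 18.2% to 18.9% in WT libraries, and that of Fstl1 7.33% to 7.69% in knockout and 2.73% to 2.75% in WT libraries. From the highest level down, the order in knockout cells was Sparc, Fn1, Nid2, Fstl1, Hspg2, Nid1, Vcan, Tnc, Fbn1 and Fbn2. In WT cells it was Sparc, Fn1, Nid2, Hspg2, Nid1, Fstl1, Vcan, Fbn1, Fbn2 and Tnc. Neighbours in both orders had ranges that did not overlap, but Nid1 (9.49 ± 0.52) and Fstl1 (8.97 ± 0.0591) in WT cells differed by less than the SD of Nid1. Fstl1 and Tnc were the genes placed higher in knockout than in WT cells.

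**Figure D4:**
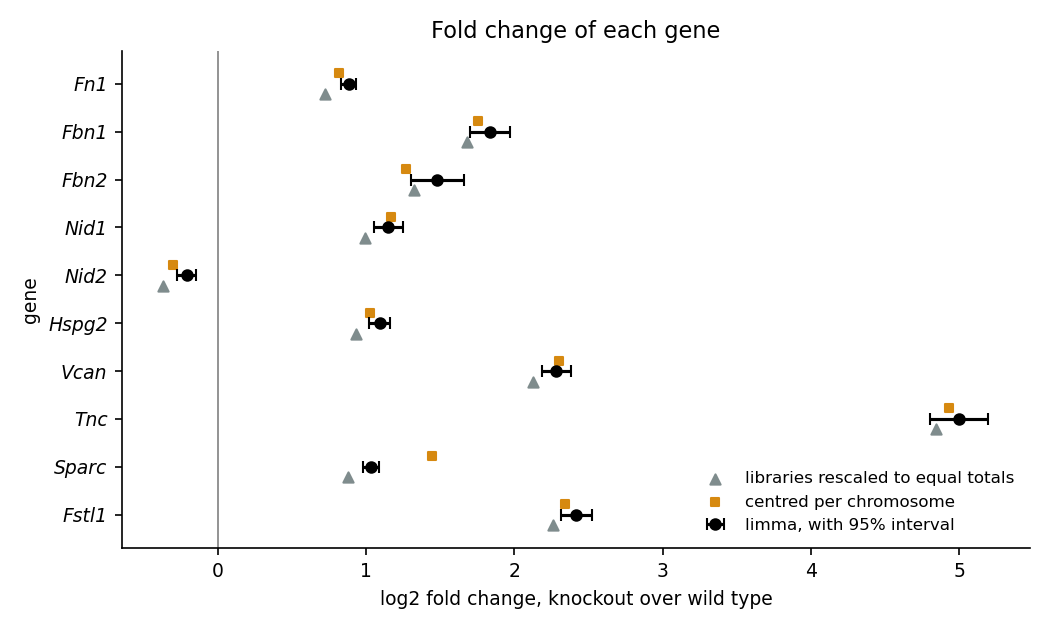
Log2 fold change, knockout over WT, of each gene with its 95% interval (black), with libraries rescaled to equal totals (grey triangles) and with values centred per chromosome (orange squares). All 3 values are above 0 for 9 genes and below 0 for Nid2, and centring moves Sparc most, to 1.45.

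Markers of other cells that may make these proteins were measured in the same libraries. Of 12 feeder fibroblast markers, 10 were higher (against 33.6% of all genes tested) and 2, Thy1 and Ddr2, were lower (against 28.9%). Their summed level was 35.7 to 37.2 in knockout and 15.2 to 17.95 in WT libraries, and 6 of the 12 reached 1 in knockout and 2 in WT cells. Thy1 alone made up most of the WT sum, and without it the other 11 summed to 29.97 to 30.7 in knockout and 3.05 to 3.93 in WT libraries. Without Col1a1, the largest in the knockout, the sums were 17.9 to 19.2 in knockout and 14.7 to 17.4 in WT libraries. None was at 0 in all libraries of a genotype, and the lowest in knockout cells was Lum, at 0.114 ± 0.0218 (SD, n = 3). Col1a1, an abundant fibroblast collagen gene, was at 17.7 ± 0.443 in knockout and 0.694 ± 0.316 in WT cells (SD, n = 3 each). Of 9 nascent mesoderm markers, 7 were higher and 1 was lower, with a summed level of 81.5 to 88.2 in knockout and 5.72 to 6.7 in WT libraries. T, the gene of the mesoderm factor brachyury, made up most of the knockout sum, and without it the other 8 summed to 22.2 to 22.9 in knockout and 4.56 to 5.31 in WT libraries. The part of either cell type in the matrix genes was not tested.

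Parietal endoderm, the embryonic cell type best known for secreting Sparc, nidogen and laminin, was checked in the same way. Of its 9 markers, 7 were lower (against 28.9% of all genes tested) and 2, Thbd and Plat, were higher (against 33.6%). Their summed level was 22.8 to 23.7 in knockout and 33.6 to 35.4 in WT libraries. Without Dab2, the other 8 summed to 14.1 to 14.8 in knockout and 13.8 to 14.2 in WT libraries. Without Plat, 1 of the 2 higher markers, the other 8 summed to 14.1 to 14.6 in knockout and 32.5 to 34.4 in WT. The lower sum in the knockout thus rests on Dab2, without which the ranges overlapped, and leaving out Plat widened the gap. Sox17 was at 0.213 ± 0.0314 in knockout and 1.90 ± 0.101 in WT cells, and Gata6 at 0.54 ± 0.0711 in knockout and 2.13 ± 0.0612 in WT cells (SD, n = 3 each). Of 5 visceral endoderm markers tested, 4 were lower and 1 higher, summing to 1.31 to 1.604 in knockout and 9.29 to 9.75 in WT libraries. The part of parietal or visceral endoderm in the matrix genes was not tested. Embryonic stem cell markers were present in both genotypes, as the label says: all 10 were above 1, with 7 lower, 1 higher and 2 not called. Their summed level was lower in the knockout, at 2413 to 2498, against 3282 to 3353 in WT libraries.

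RefSeq promoters, 250 bases before to 50 after a start on GRCm38.p6, were matched by symbol for 7 of the 10 genes. No promoter was matched for Fn1, Fbn2 or Nid2, the last being the gene that fell. Promoters are shown for the 3 genes with the largest rises and for the most abundant gene. Only the bases before the start are printed, 5′ to 3′ on the gene's strand. Capitals mark matches, on either strand, to any of 6 motifs. The core promoter motifs searched were the TATA box, spelled TATAAA, and the GC box bound by SP1 family factors, spelled GGGCGG. The signal-responsive motifs searched were the AP-1 site, spelled TGANTCA, the core of the cyclic AMP response element (CRE), spelled TGACGT, and the site of TEAD factors, spelled GGAATG. The E-box was searched as the letters CACGTG.
Tnc, chr4:64047016-64047265, minus strand: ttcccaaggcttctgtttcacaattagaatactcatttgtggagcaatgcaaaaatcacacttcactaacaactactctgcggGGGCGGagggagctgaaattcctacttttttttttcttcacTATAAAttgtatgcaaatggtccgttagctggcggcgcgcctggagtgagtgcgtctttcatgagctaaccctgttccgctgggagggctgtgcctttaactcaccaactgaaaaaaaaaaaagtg
Fstl1, chr16:37776805-37777054, plus strand: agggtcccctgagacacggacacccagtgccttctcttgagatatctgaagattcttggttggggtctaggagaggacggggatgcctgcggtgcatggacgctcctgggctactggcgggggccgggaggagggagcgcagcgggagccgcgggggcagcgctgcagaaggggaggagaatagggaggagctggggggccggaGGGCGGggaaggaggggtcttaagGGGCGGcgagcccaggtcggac
Vcan, chr13:89742513-89742762, minus strand: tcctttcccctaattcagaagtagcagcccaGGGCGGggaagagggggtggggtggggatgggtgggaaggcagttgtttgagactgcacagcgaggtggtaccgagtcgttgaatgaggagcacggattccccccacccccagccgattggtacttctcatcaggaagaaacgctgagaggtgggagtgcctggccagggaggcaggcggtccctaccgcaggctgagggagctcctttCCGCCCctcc
Sparc, chr11:55420081-55420330, minus strand: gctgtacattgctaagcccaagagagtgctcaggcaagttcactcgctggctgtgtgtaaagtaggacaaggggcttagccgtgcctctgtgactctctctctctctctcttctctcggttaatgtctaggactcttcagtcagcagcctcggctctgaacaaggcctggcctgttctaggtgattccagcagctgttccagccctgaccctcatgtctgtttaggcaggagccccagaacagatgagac

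Tnc has 2 starts in the table, so that the 7 genes have 8 promoters, and the outer one is printed. Its window holds 1 match to the GC box letters and 1 to TATAAA, at -167 and -126 from that start. The window of the inner start holds the same 2 matches, at -246 and -205. It also holds the letters tatataag nearer to its start, which the spelling TATAAA does not match. The Fstl1 and Vcan windows hold 2 GC boxes each, and the Sparc window holds no match to any of the 6 motifs. Over the 7 genes a GC box was found in 6, against 35.9% of the 32544 distinct promoters in the table. The Hspg2 window has 5. The letters TATAAA were found in 1 of the 7 (13.6% of all promoters) and the TEAD motif in 1, Nid1 (14.6%). No match to the AP-1, CRE or E-box letters was found in these windows, against 7.79%, 7.55% and 7.17% of all promoters. No matches overlapped. GC content was 47.3% and 54% in the outer and inner Tnc windows, beside a median of 53% over all promoters. It was 55.3% for Sparc, 60.3% for Fbn1, 61% for Vcan, 64.7% for Nid1, 66.7% for Fstl1 and 70.3% for Hspg2. The part of base composition in the GC box count was not tested. These are matches of letters and do not show binding.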

How the data were processed

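PolyA RNA of 3 Mettl5 knockout and 3 WT libraries was compared, with genotype and replicate taken from sample titles. RNA was fragmented to 100 nt and 0.1 µg went into stranded libraries, per the labels' protocols. The authors used kallisto and sleuth on mm10, per the submitters' processing notes; the sources used here name neither tool versions nor the transcript annotation, nor whether strand was used. In the deposited table there are, per the file headers, 2 signal columns for 24191 genes, TPM and scaled reads, and neither holds counts.

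The deposited TPM signal summed to 1019930 to 1022470 in knockout and 969838 to 978167 in WT libraries, so it had been rescaled between libraries. The deposited scaled reads were the TPM column times a nearly constant factor per gene. Over 13269 genes above 1 TPM in every library the factor varied by a median of 2.3% between libraries. Over 13072 of them with an annotated length its Spearman correlation with the median transcript length was 0.986 (across genes, which are not independent). Scaled reads are therefore per-length values put on a read-like scale. In genes with a single annotated transcript, the share of values between 0.5 and 15 that were whole multiples of a step (tolerance 0.02) was 54.2% to 58.2% per library, against a median of 1.95% to 2.51% over all steps tried. Reads could not be recovered for most genes, so no count test was used. The step gave relative depth and, carried over to a gene with several transcripts, the approximate reads of Tnc.

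The test was limma 3.58.1 in R 4.3.3, with a trend of variance on level, on log2(scaled reads + 1). Genes averaging under 1 scaled read were left out, which kept 24183 genes and all 10 matrix genes. It was tested on simulated data first. P-values were two-sided and adjusted by Benjamini-Hochberg over all genes tested. Fold changes understate the change of low genes. GENCODE M21 (GRCm38, also called mm10) gave symbols and coordinates, for 23846 of the 24191 identifiers. Python 3.11.15, pandas 2.3.3, numpy 2.4.6 and matplotlib 3.10.9 were used.

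The 10 genes, the 5 related lists, the markers and the motifs were chosen with earlier results of these data known. Besides the 10 genes, the text names the 3 genes of each list with the smallest p-values among those whose higher genotype reached a mean TPM of 1, and says where another gene was named from its values. Elastin, the other tenascin genes and the marker genes named were also picked after values were seen. Alternatives were equal library totals, the TPM column, 2 other pseudocounts, 2 other filters, no such trend, a replicate block, centring per chromosome and leaving out each library.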

Additional observations from a re-analysis of the deposited data

How the results depend on the processing

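All 10 genes kept their direction and their call under each of 15 alternatives, 6 of which left out 1 library, and the counts of 9 higher and 1 lower matrix genes held in each. The log2 fold change ranged from -0.37 to -0.19 for Nid2, from 0.73 to 0.89 for Fn1, from 0.88 to 1.45 for Sparc and from 3.97 to 5.06 for Tnc. The highest adjusted p was 0.00796 (limma, Nid2). Over all genes, equal library totals gave 6309 higher and 9147 lower genes, so 40.8% of called genes were higher, against 53.8% as reported. Leaving out 1 library gave 7537 to 7946 higher and 6371 to 6638 lower genes. Same-numbered knockout and WT libraries had correlations of deviations of 0.114, 0.0786 and 0.132, and each correlated best with its own number, but the labels tie them by number only. With the replicate number as a block, 8183 genes were higher and 6927 lower, with 9 and 1 of the matrix genes. Depth limits the precision of low values, such as those of Tnc in WT cells.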

Other observations

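Other genes had levels close to those of the main matrix genes across the 6 libraries. By Euclidean distance of log2(TPM + 1) over 6 libraries, the genes nearest to Fn1 were Nudt5 (distance 0.112), Slc38a4 (0.184) and Cst3 (0.219). Nudt5, a nucleotide hydrolase gene, averaged 125 ± 5.02 in knockout and 72.9 ± 2.04 in WT cells (SD, n = 3 each). The genes nearest to Sparc were Pdia3 (0.156), Prelid1 (0.246) and Tpm3 (0.295). Pdia3, a disulphide isomerase gene of the endoplasmic reticulum, averaged 314 ± 2.42 in knockout and 152 ± 4.48 in WT cells (SD, n = 3 each). These likenesses rest mainly on the genotype difference and the overall level, and are descriptions without a test.

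The start of Fn1 is overlapped on the opposite strand by Apol7d, annotated as antisense, which averaged 0.462 in knockout and 1.53 in WT cells. Antisense genes in Nid1 and Vcan, Gm48682 and Gm4117, were at 0.0795 and 0.18 in knockout and 0.0767 and 0.224 in WT cells.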
